A study of Homo sapiens with 60 samples.

Results

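The comparison described here is that of HepG2 cells given a water extract of Schisandrae Fructus at its high dose, 500 µg/mL (3 libraries), against cells given the same extract at its low dose, 20 µg/mL (3 libraries). Libraries were chosen by their titles, which name the extract and the dose, and they make 6 of the 60 RNA-seq libraries of the series. Both groups were treated for 24 h and differ in dose alone according to the labels, with the same batch letter in their titles. Their sample codes belong to 1 set, which also holds the Liriopis libraries, and the labels do not say what the sets stand for. The extract's medium dose, 100 µg/mL (3 libraries), served for further contrasts, as did the high and low doses of the Liriopis and Aucklandiae extracts, again 500 and 20 µg/mL. A mean over 5 other extracts also took in Longan and Zizyphi at these doses and Polygalae at 450 and 18 µg/mL. The remaining libraries, among them those of wortmannin, entered only the shared model of all 60 libraries. The vehicle (3 libraries), given as 0.1% DMSO in the labels and as 2% DMSO in the design text, has a code set of its own and is shown as a level only. HepG2 is an established human liver cancer line. The labels do not say whether replicates were separate cultures, so p-values measure only the spread between these samples.

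Schisandrae Fructus is the dried fruit of Schisandra, used in East Asian medicine and known for its lignans. Several regulatory systems of the hepatocyte come up below. Metallothioneins are small cysteine-rich proteins that bind zinc and copper, and their genes are switched on by MTF1, a transcription factor that senses free zinc. Cholesterol and fatty acid synthesis genes are driven by the SREBP factors, which are released from the endoplasmic reticulum when sterol is scarce. NRF2 drives genes of the antioxidant defence, and HIF drives genes of glucose use and the response to low oxygen.

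Total counts of the 6 libraries ran from 21.9 to 27.02 M, and 16517 genes of 60675 passed the filter on low counts. Levels are in CPM, a gene's count relative to the TMM-scaled total of its library, and fold changes are log2 values of the high over the low dose with their standard error. Gene positions are those of GENCODE 29 on GRCh38. Genes were called at a Benjamini-Hochberg adjusted p under 0.05 in edgeR's quasi-likelihood test. The markers of HepG2 cells were high in all 6 libraries and summed to 48790 ± 961 CPM at the high dose and 49560 ± 1654 CPM at the low dose (SD, n = 3 each). Of 10 fibroblast, 8 endothelial and 10 leukocyte markers, 4, 3 and 3 passed that filter. DCN, KDR, PTPRC and CD3E, which define these cell types, were listed at 0 in all 6 libraries. The 10 fibroblast markers together held 59.6 to 64.02 CPM at the high dose, against 67.97 to 73.35 CPM at the low dose. Among the 4 tested, ACTA2 was called lower (-0.41 ± 0.08) and PDGFRB higher (0.49 ± 0.11). LYZ, which encodes the bacteriolytic enzyme lysozyme, made up nearly the whole leukocyte sum, at 1620.0, 1618 and 1647 CPM at the high dose and 1015, 1024 and 1051 CPM at the low dose, and it was called higher. CD14, a receptor of macrophages and hepatocytes for bacterial lipopolysaccharide, was called lower, with 1.64, 1.19 and 1.45 CPM at the high dose and 2.27, 2.29 and 2.25 CPM at the low dose (-0.67 ± 0.18, adjusted p = 0.00864), a call lost without high-dose replicate 2 (-0.55, 0.0911). The third tested leukocyte marker, CD68, was not called in the main fit. It was called higher with no filter on low counts (0.30, adjusted p = 0.00106) and in the 6 libraries alone (0.30, 0.00411). Low-dose replicate 2 stood apart in its GC slope, a measure of how its counts lean toward GC-rich or GC-poor genes, with -0.0821 where the other 5 lay between -0.0243 and 0.0366. Mitochondrially encoded mRNAs took 9.55 to 11.4% of the counts at the high dose, against 11.5 to 12.4% at the low dose. The part of these markers and shares in the results below was not tested, apart from a fit with the GC slope as a covariate, which called 2097 genes.

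The high dose moved a broad set of genes by modest amounts. Of the 16517 tested genes 1650, or 9.99%, were called, 858 of them higher (5.19%) and 792 lower (4.8%) at the high dose. These shares are the background for the counts of each gene list below. A change of at least 2-fold was reached by 59 of the higher and 36 of the lower genes, and the median absolute log2 fold change of the called genes was 0.34. The median over all tested genes was -0.01. All 3 high-dose libraries lay above all 3 low-dose libraries for 2075 tested genes (12.6%) and below them for 2119 (12.8%). In either direction groups did not overlap for 25.4% of the tested genes and for 1616 of the 1650 called genes. A lack of overlap thus adds little to a call, and where it is given for called genes below it only describes their values. Protein-coding genes made up 94.2% of the higher genes, 92.2% of the lower genes and 77.1% of those not called. Median GC content was 50.4, 50.5 and 48.7% and median transcript length 3750.0, 3530.0 and 3045.0 bases in the same 3 classes. The median level at the low dose was 30.5 CPM in the higher, 37.1 CPM in the lower and 12.5 CPM in the genes not called, so calls were made mainly where counts were high. RNA was measured per library, so fewer cells that make a transcript and less of it per cell cannot be told apart.

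**Figure D1:**
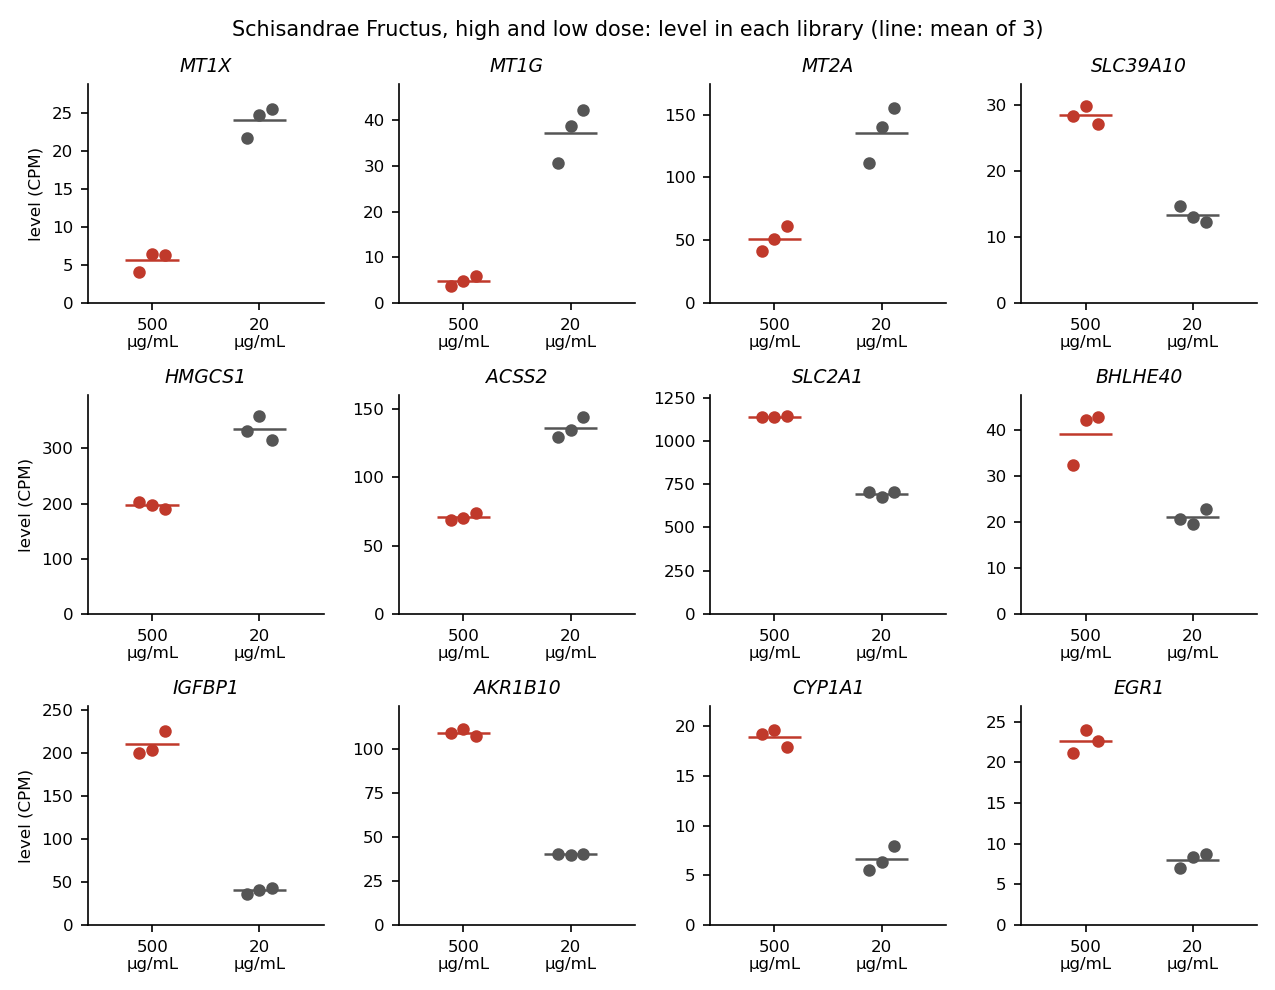
Levels in CPM (vertical axes, linear from 0) of 12 genes in each high-dose (500 µg/mL) and low-dose (20 µg/mL) Schisandrae library; each point is a library and each line the mean of 3. In all 12 panels the 3 high-dose points lie clear of the 3 low-dose points, below them for MT1X, MT1G, MT2A, HMGCS1 and ACSS2 and above them for the other 7.

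Metallothioneins showed the deepest falls. Of 10 metallothionein genes 7 had enough counts, and 6 of the 7 fell, beside 4.8% of all tested genes, with a median log2 fold change of -2.15. MT1G (ENSG00000125144, chromosome 16, 56666731 to 56668065) stood at 3.64, 4.89 and 5.98 CPM in the high-dose libraries, against 30.6, 38.7 and 42.3 CPM in the low-dose libraries, a log2 fold change of -2.95 ± 0.27 (adjusted p = 8.35e-12). MT1F (ENSG00000198417, chromosome 16, 56657694 to 56660698) held 2.62, 2.54 and 3.04 CPM at the high dose and 18, 22.6 and 24.3 CPM at the low dose (-2.99 ± 0.26, adjusted p = 1.24e-12). For MT1X (ENSG00000187193, chromosome 16, 56682424 to 56684196) the values were 4.13, 6.47 and 6.26 CPM at the high dose, against 21.7, 24.7 and 25.5 CPM at the low dose (-2.09 ± 0.16, adjusted p = 1.42e-14). In each of these genes the highest high-dose library was below the lowest low-dose library by a wide margin.

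MT2A (ENSG00000125148, chromosome 16, 56608199 to 56609497), fell by a smaller factor, with 41.7, 50.7 and 61.5 CPM at the high dose and 111, 140.0 and 155 CPM at the low dose (log2 fold change -1.4 ± 0.24, adjusted p = 1.86e-05). MT1E (ENSG00000169715, chromosome 16, 56625475 to 56627112) had 12.3, 15.3 and 16.6 CPM at the high dose, against 55.9, 73.5 and 67.3 CPM at the low dose (-2.15 ± 0.24, adjusted p = 1.19e-09). MT1M was called lower at levels under 1 CPM, with 0, 0.077 and 0.0467 CPM at the high dose and 0.61, 0.573 and 0.835 CPM at the low dose. MT1A did not pass the test (-0.78 ± 0.38, adjusted p = 0.227), its groups overlapped, and MT1B, MT1H and MT3 were listed at 0 in all 6 libraries. The MT1 genes are near-identical copies on chromosome 16, so the division of reads among them is uncertain, and all 21 metallothionein genes and pseudogenes of the table were therefore also summed. The sum was 65.0, 80.7 and 94.2 CPM in the high-dose libraries, against 239.0, 301.5 and 317.0 CPM in the low-dose libraries. In both groups replicate 1 was the lowest, and every high-dose sum lay below every low-dose sum.

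Promoters of the 2 metallothionein genes in the RefSeq table are shown because the metallothioneins were the list with the lowest median. The letters searched, on both strands of the 250 bases before the start, were TGCGCNC and TGCACNC, both forms of the core of the metal response element bound by MTF1, and capitals mark the matches to either. The sequences run 5′ to 3′ on the plus strand of GRCh38.p14, MT1X from chr16:56682220-56682469 and MT2A from chr16:56608334-56608583.
MT1X: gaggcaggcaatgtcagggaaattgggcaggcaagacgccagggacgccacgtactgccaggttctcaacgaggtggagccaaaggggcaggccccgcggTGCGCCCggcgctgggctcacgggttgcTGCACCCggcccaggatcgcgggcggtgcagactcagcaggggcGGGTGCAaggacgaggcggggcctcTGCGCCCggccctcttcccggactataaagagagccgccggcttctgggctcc
MT2A: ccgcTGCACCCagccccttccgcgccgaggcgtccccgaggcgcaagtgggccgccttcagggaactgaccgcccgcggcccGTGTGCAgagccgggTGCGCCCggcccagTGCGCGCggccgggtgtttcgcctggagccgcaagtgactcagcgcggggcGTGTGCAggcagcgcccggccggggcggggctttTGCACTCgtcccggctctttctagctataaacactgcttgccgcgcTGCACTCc
MT1X holds the core at 4 places, which begin 150, 122, 78 and 53 bases before the start of transcription. MT2A holds it at 7 places, which begin 246, 168, 153, 139, 88, 54 and 8 bases before the start. These starts are those of the RefSeq table and lie downstream of the GENCODE gene starts given above. By the GENCODE positions the MT2A window lies within the gene, and the MT1X window runs past the start of its gene. The core was present in 32.7% of the promoters of tested genes and in 24.7% of all promoters in the table. Among 17 promoters of the zinc transporter list it was found in 4, those of SLC30A1, SLC30A6, SLC39A3 and SLC39A6, of which SLC30A1 alone was called.

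Zinc transporter genes moved in both directions. Of 19 tested members of that list, which also holds MTF1, 2 rose and 4 fell, and the median was 0.04. Both that rose encode ZIP proteins, which carry zinc into the cytosol. SLC39A10 (ENSG00000196950, chromosome 2, 195575977 to 195737702) had 28.4, 29.9 and 27.2 CPM at the high dose, against 14.7, 13 and 12.3 CPM at the low dose (1.1 ± 0.08, adjusted p = 1.17e-14). SLC39A4 (ENSG00000147804, chromosome 8, 144409742 to 144416895), the transporter mutated in the zinc deficiency acrodermatitis enteropathica, had 144, 145 and 142 CPM at the high dose and 92.7, 87.7 and 99.2 CPM at the low dose (0.62 ± 0.08, adjusted p = 1.9e-08). The libraries of both groups formed tight sets that did not overlap.

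SLC30A1 (ENSG00000170385, chromosome 1, 211571568 to 211578742), the zinc exporter of the plasma membrane and itself an MTF1 target, fell to 59.3, 49.5 and 47.1 CPM at the high dose, against 90.1, 90.6 and 82.9 CPM at the low dose (-0.76 ± 0.07, adjusted p = 5.19e-11). SLC30A10, an exporter of manganese, stood at 11.7, 11.4 and 11.2 CPM at the high dose and 16.3, 17.3 and 17.2 CPM at the low dose (-0.57 ± 0.07, adjusted p = 8.75e-09). SLC39A5 and SLC39A11 fell by less (-0.29 ± 0.08 and -0.26 ± 0.08). The SLC39A5 call was lost on leaving out high-dose replicate 1 (-0.28, adjusted p = 0.0535), high-dose replicate 2 (-0.29, 0.0517) or low-dose replicate 3 (-0.26, 0.0721). SLC39A11 was named after its value was seen. MTF1 itself had 0.04 ± 0.10 (adjusted p = 0.905).

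Iron genes were called in both directions. Of 17 tested members 2 rose and 3 fell (median -0.09), beside 5.19% higher and 4.8% lower of all tested genes. HAMP (ENSG00000105697, chromosome 19, 35280716 to 35285143), which encodes hepcidin, the liver hormone that blocks iron export, had 7.77, 12 and 11.8 CPM at the high dose and 20.4, 19.4 and 23 CPM at the low dose (-0.99 ± 0.17, adjusted p = 1.6e-05). Its 3 high-dose libraries all lay below the low-dose ones. TFR2, an iron-sensing receptor upstream of hepcidin, fell by 0.22 ± 0.05 on the log2 scale (adjusted p = 0.00317). TFRC, the receptor for transferrin uptake, was called at 0.25 ± 0.07, a call lost without high-dose replicate 1 (0.21, adjusted p = 0.0789) or low-dose replicate 1 (0.23, 0.0533). The list's 5 calls came to 2 without low-dose replicate 1 and to 3 without high-dose replicate 2 or low-dose replicate 3, the members lost including ACO1 and SLC40A1. It came to 8, 3 higher and 5 lower, with no filter on low counts, and to 10, 4 higher and 6 lower, in the 6 libraries alone with the replicate block.

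Sterol synthesis genes fell nearly as a whole. Of 26 genes for cholesterol synthesis and uptake 22 fell and 1 rose, with a median log2 fold change of -0.54. HMGCS1 (ENSG00000112972, chromosome 5, 43289395 to 43313512), which makes the HMG-CoA that enters the pathway, had 203, 197 and 191 CPM at the high dose and 331, 358 and 316 CPM at the low dose (-0.77 ± 0.05, adjusted p = 1.8e-15). SQLE (ENSG00000104549, chromosome 8, 124998497 to 125022283), the squalene epoxidase, had 247, 239.9 and 229 CPM at the high dose, against 365, 386 and 342 CPM at the low dose (-0.61 ± 0.04, adjusted p = 2.33e-17). In both genes every high-dose library lay well below every low-dose library.

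Later and earlier steps of the pathway fell by similar amounts. TM7SF2, a sterol reductase, was at -0.67 ± 0.05, the thiolase ACAT2 at -0.59 ± 0.05 and the lanosterol demethylase CYP51A1 at -0.53 ± 0.05, with adjusted p-values of 1.78e-13, 1.22e-12 and 6.97e-12.

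INSIG1, the sterol-regulated retainer of SREBP, was near the floor of detection, at 0.0444, 0.193 and 0.0934 CPM at the high dose and 0.479, 0.153 and 0.0835 CPM at the low dose, and was not called. NPC1L1 and PMVK were also not called.

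Fatty acid genes followed the same direction. Of 17 tested genes for fatty acid synthesis and desaturation 12 fell and 0 rose (median -0.34), and ME1 was listed at 0. ACSS2 (ENSG00000131069, chromosome 20, 34872146 to 34927962), which makes acetyl-CoA from acetate, had the smallest adjusted p of both lipid lists, with 68.5, 70.2 and 74 CPM at the high dose and 129, 134 and 144 CPM at the low dose (-0.94 ± 0.04, adjusted p = 2.67e-24). FADS2 (ENSG00000134824, chromosome 11, 61792980 to 61867354), the delta-6 desaturase, had 219, 217 and 215 CPM at the high dose, against 344, 327 and 347 CPM at the low dose (-0.64 ± 0.04, adjusted p = 2.74e-16). GPAM, which starts glycerolipid synthesis in mitochondria, was at -0.69 ± 0.05 and the delta-5 desaturase FADS1 at -0.40 ± 0.05. TMEM97, a list member that is not itself an enzyme of fatty acid synthesis, was at -0.63 ± 0.07. The high-dose libraries lay below the low-dose libraries in all 5 of these genes.

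The sterol response element TCACNCCAC was found in 1 of 19 cholesterol promoters, that of SREBF2, and in 0 of 15 fatty acid promoters, beside 0.837% of the promoters of tested genes. Fatty acid oxidation did not move as a block, with 4 of 19 members of the PPARA list higher and 4 lower (median -0.06). PLIN2, the coat protein of lipid droplets, rose by 0.47 ± 0.05 (adjusted p = 4.07e-09) and EHHADH, a peroxisomal oxidation enzyme, fell by 0.32 ± 0.05 (adjusted p = 4.74e-06). The PPARA calls, 8 in all, came to 4 or 5 on leaving out 1 of 5 libraries.

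**Figure D2:**
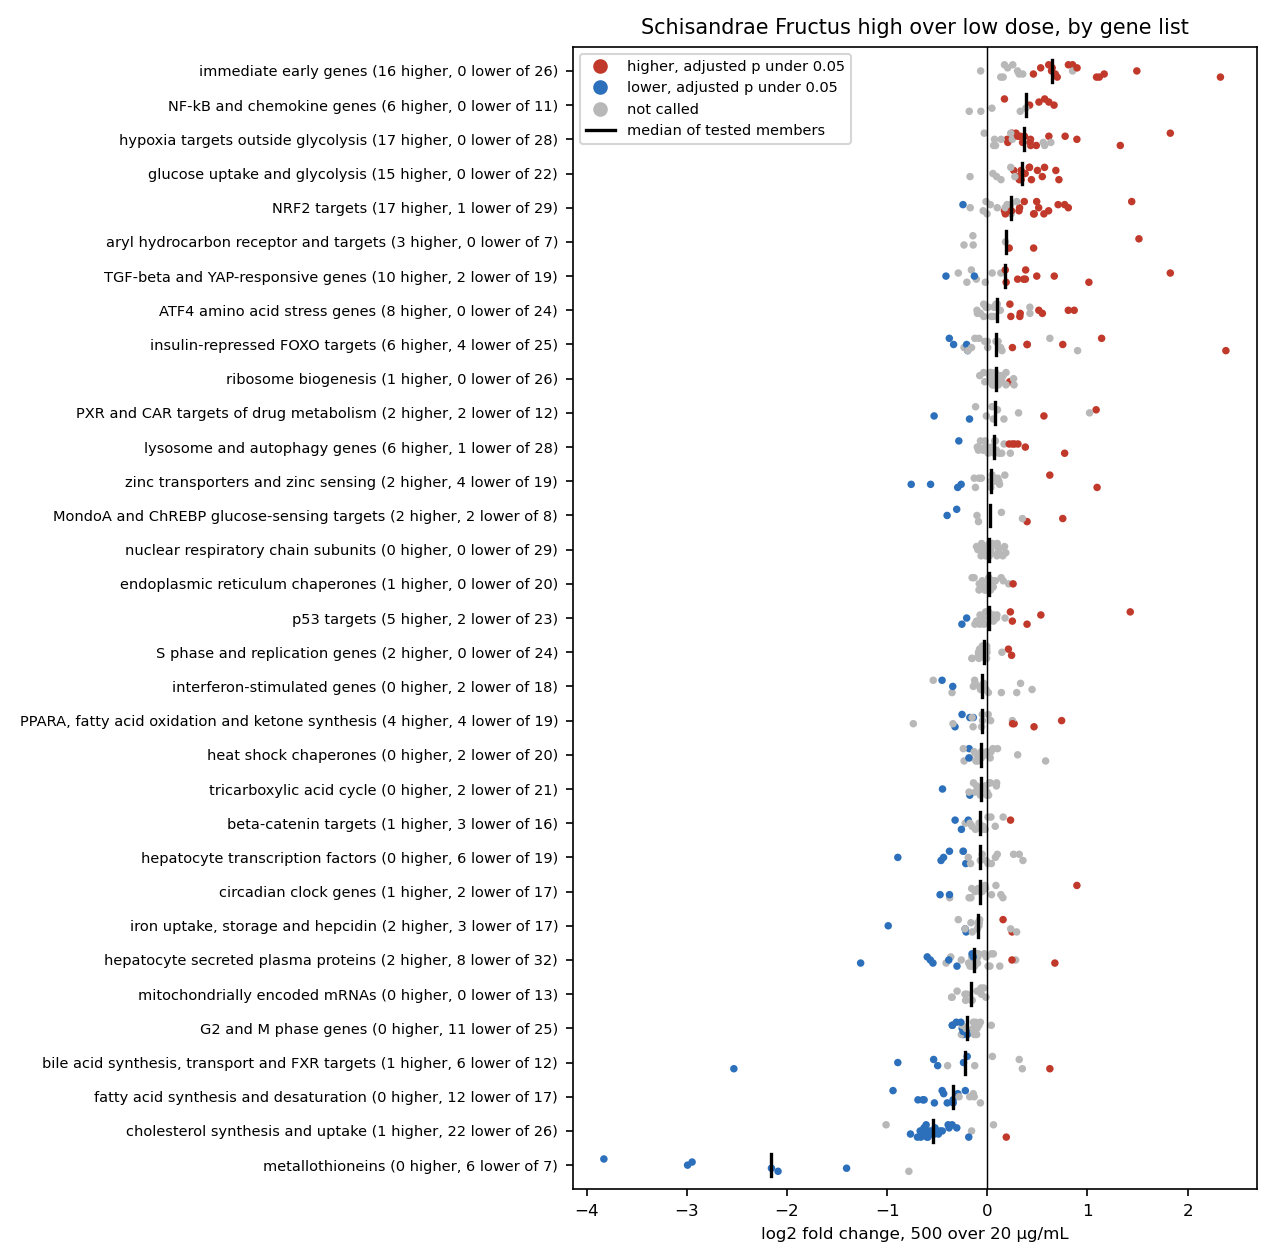
Log2 fold changes (horizontal axis) of high- over low-dose Schisandrae for the tested members of 33 gene lists, ordered by their median (black bar); points are genes, red where called higher, blue where called lower and grey where not called. Metallothioneins (median -2.15) and cholesterol genes (-0.54) lie at the bottom and immediate early genes (0.65) at the top; the fitted values of MT1M and CYP7A1 rest on very few counts.

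Glucose uptake and glycolysis genes rose. Of 22 members 15 rose, beside 5.19% of all tested genes, and 0 fell (median 0.34). SLC2A1 (ENSG00000117394, chromosome 1, 42925375 to 42959176), the glucose transporter GLUT1, had 1137, 1140.0 and 1145 CPM at the high dose and 702, 675 and 707 CPM at the low dose (0.72 ± 0.04, adjusted p = 9.92e-19). The spread within each group was a small part of the distance between them. ALDOA, the aldolase, had 1835, 1954 and 1961 CPM at the high dose and 1267, 1242 and 1420.0 CPM at the low dose (0.55 ± 0.06, adjusted p = 4.39e-10). PKM, the pyruvate kinase, was at 0.42 ± 0.04, LDHA, which turns pyruvate into lactate, at 0.44 ± 0.06 and the isomerase GPI at 0.34 ± 0.04. GAPDH was at 0.23 ± 0.09 and missed the threshold (adjusted p = 0.0903). IDH1 and CS were the only called members of the tricarboxylic acid cycle list, both lower, 2 of 21, and the CS call was lost with no filter on low counts.

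Hypoxia targets outside glycolysis also rose, 17 of 28 with 0 lower (median 0.36). BHLHE40, a repressor of the clock and of lipid genes, had 32.3, 42.1 and 42.8 CPM at the high dose and 20.6, 19.7 and 22.8 CPM at the low dose (0.89 ± 0.11, adjusted p = 9.03e-09). PDK1, which turns off pyruvate dehydrogenase, had 43.3, 48.4 and 45.1 CPM at the high dose and 28.6, 32.6 and 28.1 CPM at the low dose (0.61 ± 0.08, adjusted p = 9.07e-08). Neither of these genes overlapped between the groups.

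INSIG2, which also holds SREBP back, was in the same list and rose by 0.43 ± 0.07 (adjusted p = 1.9e-05), with 51.6, 51.4 and 50.9 CPM at the high dose and 34.6, 42.8 and 37 CPM at the low dose. CA9, carbonic anhydrase 9, was called at 1.33 ± 0.37 from low levels, 4.22, 4.74 and 5.14 CPM at the high dose and 1.4, 2.22 and 1.96 CPM at the low dose. That call was lost without low-dose replicate 1 (1.17, adjusted p = 0.0808). EPO, the hypoxia-driven hormone, was at 0.06 ± 0.12 and its groups overlapped. CA12, HILPDA and ANKRD37 were not called either, and these 4 were named after their values were seen.

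The core of the hypoxia response element, ACGTG, was searched in the same way, and CACGTG, which reads alike on both strands, counts as 2 matches. It was found in 13 of 21 hypoxia promoters (61.9%) and 8 of 21 glycolysis promoters (38.1%), beside 23.1% of the promoters of tested genes. The promoters of LDHA, from chr11:18394313-18394562, and of BHLHE40, from chr3:4979187-4979436, both on the plus strand of GRCh38.p14, are shown because they belong to called genes and hold several matches, with the core in capitals.
LDHA: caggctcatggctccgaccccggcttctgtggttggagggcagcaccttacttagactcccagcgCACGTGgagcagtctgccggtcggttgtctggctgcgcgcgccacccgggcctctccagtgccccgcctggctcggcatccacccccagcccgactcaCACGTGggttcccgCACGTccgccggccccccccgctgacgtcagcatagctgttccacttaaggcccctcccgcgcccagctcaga
BHLHE40: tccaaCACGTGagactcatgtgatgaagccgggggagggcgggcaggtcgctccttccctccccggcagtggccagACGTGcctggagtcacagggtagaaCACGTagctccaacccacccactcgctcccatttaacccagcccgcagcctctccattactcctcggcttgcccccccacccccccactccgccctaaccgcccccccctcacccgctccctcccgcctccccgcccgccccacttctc
LDHA has 5 matches and BHLHE40 has 4. The promoters of SLC2A1, PKM and PDK1, which were also called higher, have 0. All 4 promoters printed here are RefSeq sequences, and a match of letters is a description of the window and not a measured site.

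Immediate early genes, which respond within minutes to growth factor and stress kinases, were higher at the high dose. Of 26 tested members 16 rose and 0 fell, and their median of 0.65 was the highest of the lists. EGR1 (ENSG00000120738, chromosome 5, 138465490 to 138469315), a zinc finger factor, had 21.1, 24 and 22.6 CPM at the high dose, against 6.97, 8.4 and 8.68 CPM at the low dose (1.49 ± 0.15, adjusted p = 8.95e-11). FOS, a subunit of AP-1, had 2.04, 2.16 and 2.24 CPM at the high dose and 0.392, 0.458 and 0.417 CPM at the low dose (2.33 ± 0.29, adjusted p = 3.93e-08). Its partner JUN had 40.1, 44.7 and 46.7 CPM at the high dose and 23, 23.3 and 26.6 CPM at the low dose (0.85 ± 0.09, adjusted p = 1.41e-09). The groups stood apart in all 3 genes.

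ZFP36, which destabilises inflammatory mRNAs, was at 1.12 ± 0.14, the AP-1 subunit FOSL2 at 0.65 ± 0.08 and KLF6 at 0.53 ± 0.06, with adjusted p-values of 2.28e-08, 6.66e-09 and 2.9e-10. MYC, SRF and IER2 were among the 10 not called, and MYC had 210.4, 235 and 241 CPM at the high dose and 201, 194 and 220.1 CPM at the low dose. These 3 were named after their values were seen. The RAS-related gene RASD1, outside the list, had 6.3, 8.4 and 7.84 CPM at the high dose and 3.36, 3.32 and 3.55 CPM at the low dose (1.14 ± 0.19, adjusted p = 2.17e-05).

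NF-kB and chemokine genes rose in 6 of 11 tested cases with 0 lower (median 0.39), while CXCL1, CXCL2, IL6 and TNF had too few counts. ICAM1 (ENSG00000090339, chromosome 19, 10270835 to 10286615), an adhesion receptor for leukocytes, had 164, 170.2 and 176 CPM at the high dose and 113, 113 and 116 CPM at the low dose (0.57 ± 0.04, adjusted p = 6.28e-15). RELB and NFKB2, which pair in the alternative NF-kB pathway, were at 0.61 ± 0.11 and 0.42 ± 0.08, and the chemokine CCL20 was at 0.67 ± 0.15. TNFAIP3, a brake on the pathway, was called at 0.17 ± 0.05, a call lost without high-dose replicate 2 (0.16, adjusted p = 0.0676), high-dose replicate 3 (0.16, 0.0778) or low-dose replicate 1 (0.17, 0.0637), and with no filter on low counts (0.22).

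TGF-beta and YAP-responsive genes rose in 10 and fell in 2 of 19 cases (median 0.18), and the 12 calls came to 7 without high-dose replicate 3 or low-dose replicate 1. CCN1 (ENSG00000142871, chromosome 1, 85580761 to 85583962), a matricellular protein, had 18.2, 18.4 and 18.9 CPM at the high dose and 9.63, 8.44 and 9.44 CPM at the low dose (1.01 ± 0.10, adjusted p = 3.48e-11). ANKRD1, a YAP target, was at 0.67 ± 0.12 (adjusted p = 8.78e-05), and ACTA2, smooth muscle actin, fell by 0.41 ± 0.08 (adjusted p = 7.08e-05). CCN2 was at 0.36 ± 0.11, and its call was lost without high-dose replicate 2 (0.36, adjusted p = 0.0744), high-dose replicate 3 (0.32, 0.118) or low-dose replicate 1 (0.31, 0.137).

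The largest rise by the naming rule was that of IGFBP1. IGFBP1 (ENSG00000146678, chromosome 7, 45888357 to 45893668), a protein that the liver releases to bind insulin-like growth factors and whose gene insulin represses, had 201, 204 and 226 CPM at the high dose, against 36, 41.3 and 43.6 CPM at the low dose (2.38 ± 0.18, adjusted p = 1.17e-14). DEPP1, a FOXO target linked to autophagy, had 56.5, 64.1 and 72.6 CPM at the high dose and 26.7, 28.4 and 32.4 CPM at the low dose (1.14 ± 0.09, adjusted p = 2.64e-13). The other insulin-repressed FOXO targets were divided, and of all 25 tested members 6 rose and 4 fell (median 0.09). The 10 calls came to 6 without low-dose replicate 2. G6PC1, the catalytic subunit of glucose-6-phosphatase, was at 0.75 ± 0.21, and its call was lost without high-dose replicate 3 (0.69, adjusted p = 0.0595), low-dose replicate 2 (0.71, 0.0524) or low-dose replicate 3 (0.65, 0.0782). PCK1, the gluconeogenic carboxykinase, was not called and overlapped between the groups (2.75, 2.2 and 1.96 CPM at the high dose and 2.7, 2.98 and 2.42 CPM at the low dose, named after its value was seen).

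GDF15 (ENSG00000130513, chromosome 19, 18374731 to 18389176), a secreted stress hormone, had 203, 267 and 281 CPM at the high dose and 77.5, 96.3 and 105 CPM at the low dose (1.43 ± 0.15, adjusted p = 1.81e-10). It stood in the p53 list, of which 5 of 23 members rose and 2 fell (median 0.01). CDKN1A, the p53-driven cell cycle inhibitor, was at 0.40 ± 0.08 (adjusted p = 0.00038). ATF4 amino acid stress genes rose in 8 of 24 cases with 0 lower (median 0.09). The cystine carrier SLC7A11 had 91.8, 90.1 and 82.4 CPM at the high dose and 51.2, 52.6 and 47 CPM at the low dose (0.81 ± 0.08, adjusted p = 2.85e-10), and the asparagine synthetase ASNS was at 0.55 ± 0.07 (adjusted p = 8.41e-09).

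NRF2 targets rose in 17 of 29 tested cases and fell in 1 (median 0.24). AKR1B10 (ENSG00000198074, chromosome 7, 134527592 to 134541408), a reductase of aldehydes and retinal, had the smallest adjusted p of any named gene, with 109, 112 and 108 CPM at the high dose, against 40.3, 40.1 and 40.6 CPM at the low dose (1.44 ± 0.05, adjusted p = 1.27e-25). SQSTM1 (ENSG00000161011, chromosome 5, 179806398 to 179838078), the autophagy receptor p62, had 334, 335 and 343 CPM at the high dose and 201, 191 and 200.3 CPM at the low dose (0.77 ± 0.04, adjusted p = 3.54e-20). The export pump ABCC2, the sulfiredoxin SRXN1 and the quinone reductase NQO1 were at 0.57 ± 0.04, 0.61 ± 0.05 and 0.46 ± 0.04. None of these 5 genes overlapped between groups, as was so for most called genes.

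HMOX1, heme oxygenase 1 and a common readout of NRF2, was not called and its groups overlapped, with 48.2, 51.9 and 52.4 CPM at the high dose and 52, 50.1 and 54.9 CPM at the low dose (-0.04 ± 0.07). The antioxidant response core TGACNNNGC was found in 5 of 21 promoters of the list (23.8%), beside 12.2% of the promoters of tested genes.

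Drug-metabolising genes gave a mixed picture. CYP1A1 (ENSG00000140465, chromosome 15, 74719542 to 74725610), the monooxygenase induced through the aryl hydrocarbon receptor, had 19.2, 19.6 and 17.9 CPM at the high dose and 5.54, 6.38 and 7.93 CPM at the low dose (1.51 ± 0.09, adjusted p = 3.13e-17). Of 7 tested members of that list 3 rose and 0 fell, and AHR itself was at 0.22 ± 0.07 with a call lost without high-dose replicate 1 (0.15, adjusted p = 0.296), low-dose replicate 2 (0.22, 0.104) or low-dose replicate 3 (0.17, 0.234). TIPARP, another target of the receptor, was not called (-0.14 ± 0.08). CYP3A5, a drug-oxidising P450, had 9.14, 9.24 and 10.1 CPM at the high dose and 4.66, 4.43 and 4.3 CPM at the low dose (1.09 ± 0.10, adjusted p = 2.62e-11). CYP3A4 lay at 0.133, 0.193 and 0.187 CPM at the high dose and 0.218, 0.115 and 0.0835 CPM at the low dose, near the floor of detection, and was not called. SULT2A1, a sulfotransferase of steroids and bile acids, fell by 0.53 ± 0.07 (adjusted p = 3.57e-07).

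Several genes of differentiated hepatocytes were lower at the high dose. NR1H4 (ENSG00000012504, chromosome 12, 100473708 to 100564413), the bile acid receptor FXR, had 22, 22.4 and 24.4 CPM at the high dose, against 40.5, 46.8 and 40.2 CPM at the low dose (-0.89 ± 0.07, adjusted p = 2.72e-14). Of 19 hepatocyte transcription factors 6 fell and 0 rose (median -0.07), among them FOXA1 at -0.38 ± 0.07 and CEBPA at -0.44 ± 0.08. HNF4A missed the threshold with 398, 382 and 382 CPM at the high dose and 461, 423 and 442 CPM at the low dose (-0.19 ± 0.07, adjusted p = 0.0703), which it passed with the replicate number as a block (adjusted p = 0.0445). Of 12 tested genes of bile acid synthesis and transport 6 fell and 1 rose (median -0.22). CYP7A1, the rate-limiting enzyme of bile acid synthesis, was called lower at very low levels, 0, 0.154 and 0.0934 CPM at the high dose and 0.436, 0.764 and 0.334 CPM at the low dose. AKR1D1, a reductase of the pathway, was at -0.54 ± 0.08, CYP27A1, which opens its alternative branch, at -0.24 ± 0.05 and BAAT, which joins bile acids to amino acids, at 0.63 ± 0.12.

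Among 32 tested genes of secreted plasma proteins 8 fell and 2 rose (median -0.13). FGA (ENSG00000171560, chromosome 4, 154583126 to 154590766), the fibrinogen alpha chain, had 847, 890.0 and 862 CPM at the high dose and 1250.0, 1282 and 1250.0 CPM at the low dose (-0.54 ± 0.05, adjusted p = 2.32e-11). FGG and FGB, the other fibrinogen chains, were at -0.60 ± 0.06 and -0.38 ± 0.07, and HP, haptoglobin, was at -0.57 ± 0.06. KNG1 (ENSG00000113889, chromosome 3, 186717276 to 186744410), kininogen, had 2.22, 2.7 and 2.66 CPM at the high dose and 6.36, 6.65 and 5.22 CPM at the low dose (-1.26 ± 0.17, adjusted p = 2.25e-07). CP, the copper-carrying ceruloplasmin, rose to 163, 171 and 172 CPM at the high dose, against 103, 111 and 103 CPM at the low dose (0.68 ± 0.07, adjusted p = 4.53e-10). ALB, the albumin gene, was not called and overlapped between the groups, with 6377, 6761 and 6565 CPM at the high dose and 6587, 7438 and 7462 CPM at the low dose.

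Mitotic genes were slightly lower. Of 25 genes of the G2 and M phases 11 fell and 0 rose (median -0.20), a count that came to 6 without high-dose replicate 1 or low-dose replicate 2, to 7 without high-dose replicate 3 and to 17 with the GC slope of each library as a covariate. KIF20A, a kinesin of cytokinesis, had 61.7, 60.1 and 64 CPM at the high dose and 78.8, 80.3 and 77.5 CPM at the low dose (-0.35 ± 0.05, adjusted p = 1.06e-06). PLK1, the mitotic kinase, was at -0.20 ± 0.06, and its call was lost without high-dose replicate 1 (-0.17, adjusted p = 0.1) or low-dose replicate 3 (-0.17, 0.0944). With no filter on low counts its adjusted p was 0.0505. MKI67, the proliferation marker, was at -0.24 ± 0.08 (adjusted p = 0.0437), and its adjusted p was 0.0633 to 0.167 on leaving out any 1 of the 6 libraries. Of 24 S phase genes 2 rose and 0 fell, and RRM2, a ribonucleotide reductase subunit, was at 0.21 ± 0.03 (adjusted p = 1e-05). The other, CDC45, a helicase subunit of the replication fork, was at 0.24 ± 0.08, and its adjusted p was 0.0753 to 0.226 on leaving out any 1 library other than low-dose replicate 2, 0.0843 with no filter on low counts and 0.065 in the 6 libraries alone. The S phase calls came to 1 without high-dose replicate 2, high-dose replicate 3 or low-dose replicate 3, and to 4, 3 higher and 1 lower, with the GC slope as a covariate.

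Other lists went both ways or had few or no calls, beside 5.19% higher and 4.8% lower of all tested genes. No gene was called among 13 mitochondrially encoded mRNAs (median -0.16) or 29 nuclear genes of the respiratory chain (median 0.02). With no filter on low counts 6 of the mitochondrial mRNAs were called, and in fits of the 6 libraries alone 3 were. Ribosome biogenesis had 1 gene higher of 26 (4 called with the replicate block), endoplasmic reticulum chaperones 1 higher of 20, heat shock chaperones 2 lower of 20 and interferon-stimulated genes 2 lower of 18. The single chaperone, EDEM1, lost its call on leaving out any 1 of the 6 libraries (adjusted p = 0.0648 to 0.129), which left that list with 0 calls. Of the heat shock genes, HSP90AA1 lost its call on leaving out any library other than high-dose replicate 1 (0.0574 to 0.266). DNAJA1 did so without high-dose replicate 3 (0.0834) or low-dose replicate 2 (0.111). Both also lost it with no filter on low counts and in the 6 libraries alone, and HSP90AA1 under RLE scaling (0.0559). The heat shock list had 0 calls without high-dose replicate 3 or low-dose replicate 2, and the interferon list without high-dose replicate 3. Among 28 genes of lysosomes and autophagy 6 were higher and 1 was lower, of 17 clock genes 1 rose and 2 fell, and of 8 glucose-sensing targets of MondoA and ChREBP 2 rose and 2 fell. Of 16 beta-catenin targets 1 rose and 3 fell, which came to 1 and 1 without high-dose replicate 1 and to 2 and 5 in the 6 libraries alone with the replicate block. Among them DKK1, a secreted inhibitor of the pathway, lost its call on leaving out any of 3 libraries (adjusted p = 0.0652 to 0.097), and TCF7, a partner of beta-catenin, on leaving out any of 4 (0.0549 to 0.182) and with no filter on low counts (0.122).

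The remaining genes with the largest changes belong to no list. LCN15, a lipocalin, had 4.26, 6.39 and 5.46 CPM at the high dose and 1.09, 1.38 and 1.54 CPM at the low dose (2 ± 0.23, adjusted p = 4.21e-09). PLAC8, a small cysteine-rich protein, had 8.75, 10.3 and 10.7 CPM at the high dose and 3.31, 3.9 and 4.47 CPM at the low dose (1.35 ± 0.15, adjusted p = 1.57e-09). TMCC1, a membrane protein of the endoplasmic reticulum, had 53.7, 55.8 and 61.5 CPM at the high dose and 24.4, 26.5 and 25 CPM at the low dose (1.17 ± 0.07, adjusted p = 3.62e-17). CEMIP, which takes part in hyaluronan breakdown, was at 1.17 ± 0.09 (adjusted p = 1.34e-14). All 4 were higher in every high-dose library, which the rule for naming the largest changes required.

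Among the falls, SLC22A7, the organic anion transporter OAT2, had 2.44, 2.7 and 2.94 CPM at the high dose and 5.54, 6.88 and 5.84 CPM at the low dose (-1.18 ± 0.12, adjusted p = 3.13e-10). TJP3, the tight junction protein ZO-3, had 4.48, 5.16 and 4.72 CPM at the high dose and 10.9, 9.63 and 11.1 CPM at the low dose (-1.13 ± 0.11, adjusted p = 1.14e-10). ACSM2B, a mitochondrial acyl-CoA synthetase, had 6.17, 5.32 and 6.4 CPM at the high dose and 11.5, 12.6 and 11.5 CPM at the low dose (-1 ± 0.08, adjusted p = 6.2e-14). NYNRIN was at -1.12 ± 0.16 and TNFAIP8L3, a carrier of phosphoinositides, at -0.98 ± 0.13. Their groups did not overlap, as the same rule required. Many of the genes named here lie over another annotated gene, mostly on the opposite strand, and since the strand setting of the counting is not given in the sources used here their counts are uncertain. They include ABCC2, ACAT2, ACSS2, ACTA2, AHR, AKR1C2, AKR1D1, ALDOA, ASNS, BAAT, BHLHE40, CA9, CCN2, CEBPA, CEMIP, CP, CYP51A1, DEPP1, EHHADH, FADS1, FADS2, FOSL2, FOXA1, GPI, HMGCS1, HP, ICAM1, KIF20A, KNG1, LYZ, MT1X, NQO1, NR1H4, PDK1, PLK1, RRM2, SLC22A7, SLC2A1, SLC39A10, SLC39A11, SLC39A4, SLC39A5, SLC7A11, SQSTM1, SRXN1, TFRC, TM7SF2, TMEM97, TNFAIP3 and TNFAIP8L3.

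The medium dose placed these genes along the dose series. Medium against low dose called 42 of 16517 genes (0.254%), 26 higher (0.157%) and 16 lower (0.0969%), while 1419 had an unadjusted p under 0.05. With the replicate number as a block the count was 75. It came to 17 without medium-dose replicate 3 or low-dose replicate 2, to 18 without medium-dose replicate 2 and to 21 without low-dose replicate 1. High against medium dose called 1045 genes (6.33%), 581 higher (3.52%) and 464 lower (2.81%), a count of 690 without high-dose replicate 1 and of 696 without medium-dose replicate 3. The medium contrast shares its low-dose libraries with the main comparison, and the high against medium contrast its high-dose ones, so they are set side by side and not against each other.

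Metallothioneins, zinc transporters and some stress genes differed already at the medium dose. The metallothionein sum was 409.2 ± 13.4 CPM in the vehicle, 285.8 ± 41.3 CPM at 20 µg/mL, 156.9 ± 10.5 CPM at 100 µg/mL and 79.9 ± 14.6 CPM at 500 µg/mL (SD, n = 3 each), with no test across the vehicle. At 100 µg/mL against 20 µg/mL, 4 of 7 metallothioneins were lower, with MT1X at -0.73 ± 0.14 (adjusted p = 0.0036) and MT1G at -1.1 ± 0.23 (adjusted p = 0.0103). SLC39A10 was at 0.50 ± 0.08, SLC39A4 at 0.49 ± 0.08 and SLC30A1 at -0.36 ± 0.07, with adjusted p-values of 0.000451, 0.000185 and 0.01. SLC39A4 had 122, 129 and 142 CPM in the medium-dose libraries, close to its high-dose values, and its high against medium difference was 0.14 ± 0.08 (adjusted p = 0.37). AKR1B10, IGFBP1 and SLC2A1 were also higher, at 0.52 ± 0.05, 0.77 ± 0.17 and 0.20 ± 0.04.

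Lipid genes and immediate early genes were called mainly between the medium and the high dose. At the medium dose 0 of 26 cholesterol genes were called (median -0.08) and 1 of 17 fatty acid genes, ACSS2 at -0.26 ± 0.04 (adjusted p = 4.66e-05). Between medium and high dose 19 of the 26 and 11 of the 17 were lower. HMGCS1 had 304, 306 and 289 CPM in the medium-dose libraries, which gave -0.16 ± 0.05 against the low dose (adjusted p = 0.291) and -0.61 ± 0.05 for high against medium (adjusted p = 8.32e-12). EGR1 had 9.26, 7.9 and 8.88 CPM at the medium dose, 0.10 ± 0.16 against the low dose (adjusted p = 0.889) and 1.39 ± 0.15 for high against medium (adjusted p = 1.15e-09). Of 26 immediate early genes 0 were called at the medium dose and 15 were higher at the high than at the medium dose. HAMP showed the same shape, with 21.4, 21.3 and 22.3 CPM at the medium dose and -1.04 ± 0.16 for high against medium (adjusted p = 9.97e-06).

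**Figure D3:**
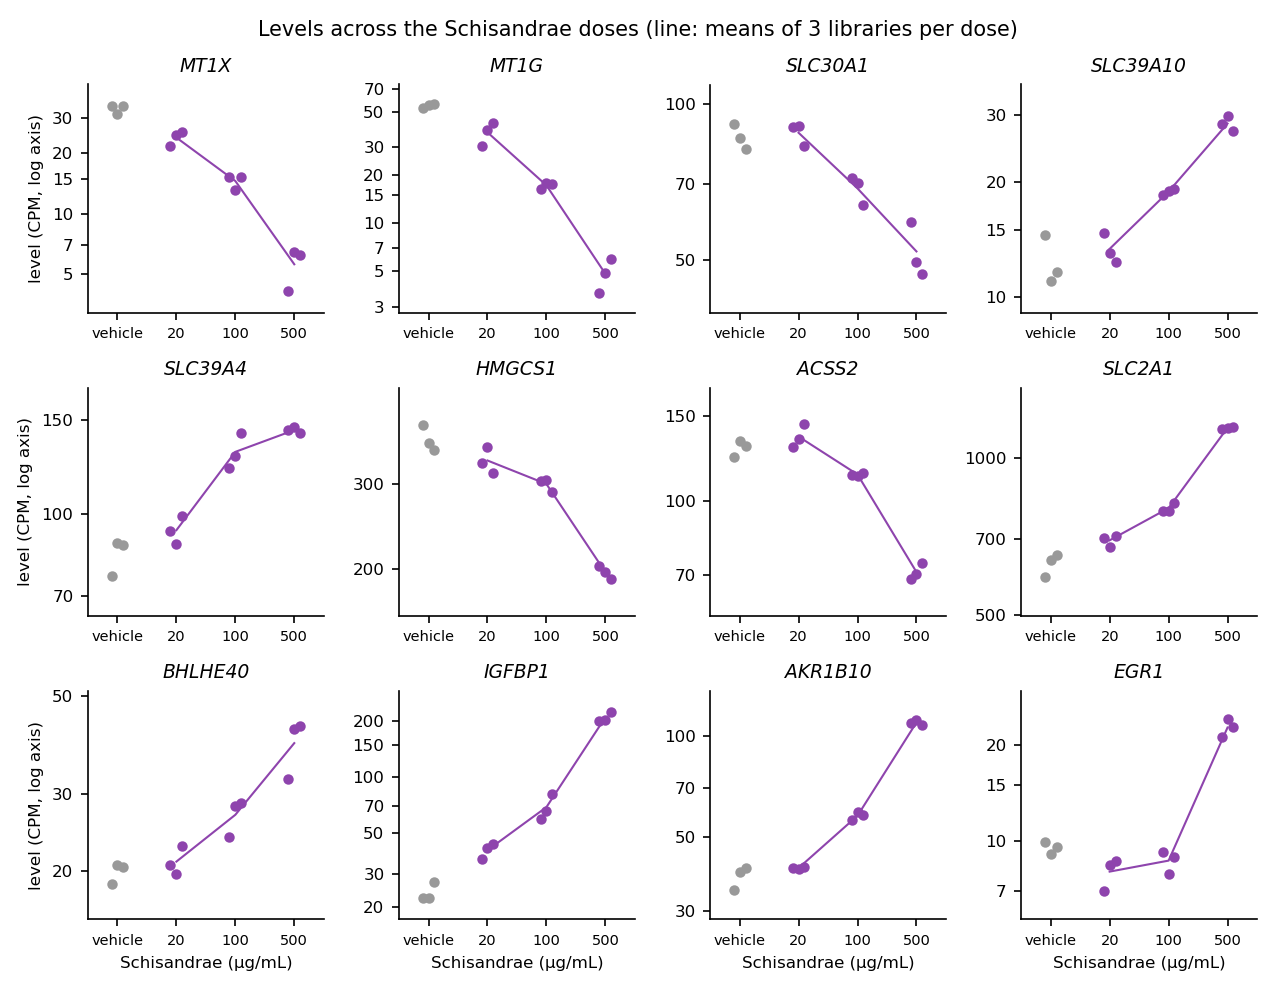
Levels of 12 genes in CPM (vertical axes, log scale) in the vehicle (grey) and at 20, 100 and 500 µg/mL of Schisandrae (purple); points are libraries and lines join the means of 3. From 20 to 100 and on to 500 µg/mL, MT1X, MT1G and SLC30A1 step down and SLC39A10 steps up, SLC39A4 levels off after 100 µg/mL, and HMGCS1 and EGR1 move mainly between 100 and 500 µg/mL.

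The same high minus low difference was then set against that of other extracts, with the difference of differences tested in the same model. Liriopis, which shares the code set, had 0 genes called between its high and low dose in edgeR and in DESeq2, with 806 at an unadjusted p under 0.05. The Schisandrae dose difference differed from that of Liriopis for 821 genes (4.97%), 445 of them more positive (2.69%) and 376 more negative (2.28%) in Schisandrae. AKR1B10 differed by 1.35 ± 0.08 (adjusted p = 5.3e-18), with a dose difference of 1.44 ± 0.05 in Schisandrae and 0.09 ± 0.06 in Liriopis. ACSS2 differed by -0.92 ± 0.05, SLC2A1 by 0.78 ± 0.06 and the activin-binding protein FST by 1.03 ± 0.08, with adjusted p-values of 8.74e-18, 2.38e-14 and 2.23e-13.

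By list, the dose difference was more negative in Schisandrae than in Liriopis for 20 of 26 cholesterol genes, 10 of 17 fatty acid genes and 5 of 7 metallothioneins. It was more positive for 15 of 26 immediate early genes, 14 of 28 hypoxia targets, 10 of 22 glycolysis genes and 10 of 29 NRF2 targets. Against these directions, 1 cholesterol gene was more positive and 1 NRF2 target more negative. MT1G differed by -2.32 ± 0.35 (adjusted p = 5.1e-06), while Liriopis itself was at -0.62 ± 0.22 for this gene and did not pass its own test (adjusted p = 0.968).

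Aucklandiae, at the same doses but in another code set, had 2462 genes called between its high and low dose (14.9%), 1283 higher (7.77%) and 1179 lower (7.14%). The Schisandrae difference departed from it for 852 genes (5.16%), 371 more positive (2.25%) and 481 more negative (2.91%). NRF2 targets moved further in Aucklandiae, where 17 of 29 had a higher dose difference and 0 a lower one than in Schisandrae. PTGR1, a reductase of prostaglandins and reactive aldehydes, was at 0.20 ± 0.10 in Schisandrae and 2.37 ± 0.09 in Aucklandiae, a difference of -2.17 ± 0.13 (adjusted p = 4.63e-17). AKR1C1 and AKR1C2, near-identical reductases whose reads may be divided between them, differed by -1.19 ± 0.08 and -1.49 ± 0.10. HMOX1 was at -0.04 ± 0.07 in Schisandrae and 1.02 ± 0.06 in Aucklandiae, a difference of -1.06 ± 0.09 (adjusted p = 7.35e-12). AKR1B10 also rose further in Aucklandiae, at 1.81 ± 0.05 against 1.44 ± 0.05 in Schisandrae (difference -0.37 ± 0.07, adjusted p = 0.000602).

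Several other lists moved in the same direction in both extracts. In Aucklandiae itself 17 of 26 cholesterol genes were lower and 1 was higher, 14 of 28 hypoxia targets and 9 of 22 glycolysis genes were higher with 0 lower, and 11 of 26 immediate early genes were higher with 2 lower. The dose difference was more positive in Schisandrae for 2 hypoxia targets with 0 more negative, for 5 glycolysis genes with 1 more negative, and for 8 immediate early genes with 0 more negative. ACSS2 was at -0.94 ± 0.04 in Schisandrae and -0.20 ± 0.04 in Aucklandiae, a difference of -0.74 ± 0.05 (adjusted p = 1.81e-14), and 11 of 26 cholesterol genes had a more negative dose difference in Schisandrae with 0 more positive. SLC2A1 was at 0.72 ± 0.04 in Schisandrae and 0.02 ± 0.04 in Aucklandiae (difference 0.70 ± 0.06, adjusted p = 6.94e-13). EGR1 was at 1.49 ± 0.15 in Schisandrae and 0.21 ± 0.16 in Aucklandiae (difference 1.28 ± 0.22, adjusted p = 4.22e-05). Metallothioneins fell with dose in both extracts, and 3 of 7, MT1F, MT1G and MT1X, had a more negative difference in Schisandrae, while MT2A differed by -0.08 ± 0.33 (adjusted p = 0.961). For 16 of 25 mitotic genes the dose difference was more negative in Aucklandiae, with PLK1 at -0.20 ± 0.06 in Schisandrae and -0.67 ± 0.06 in Aucklandiae (difference 0.48 ± 0.08, adjusted p = 3.3e-05).

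**Figure D4:**
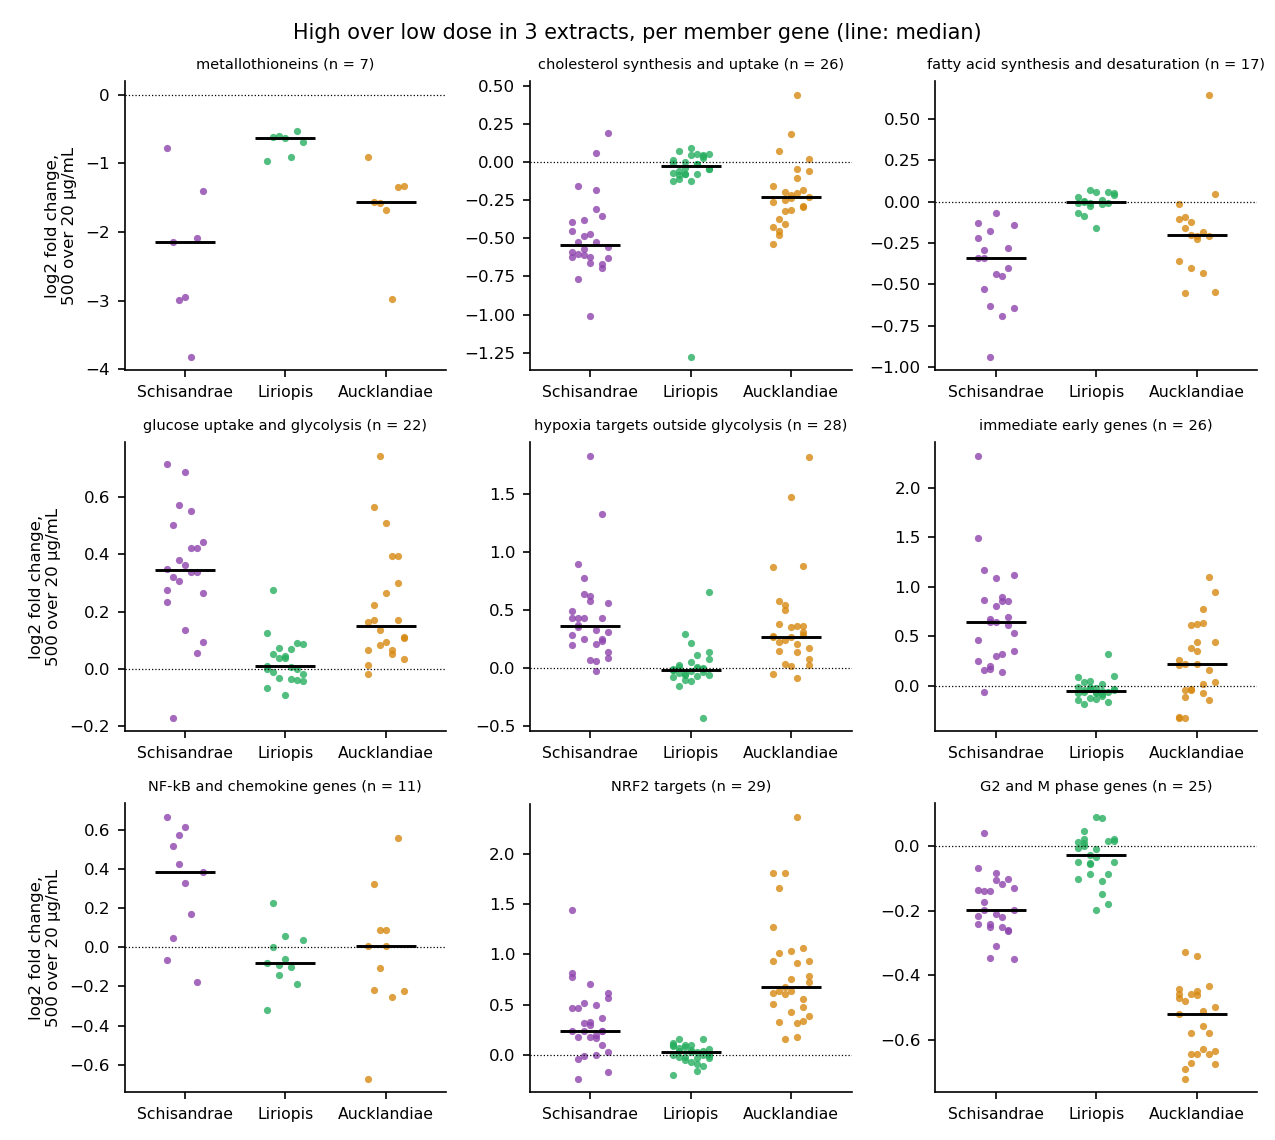
Log2 fold change of high over low dose (vertical axes, scales differ between panels) for the tested members of 9 gene lists in Schisandrae (purple), Liriopis (green) and Aucklandiae (orange); points are genes and bars their median. Liriopis medians lie near 0 except for metallothioneins (-0.625), while Aucklandiae lies above Schisandrae for NRF2 targets and below it for G2 and M phase genes.

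Against the mean dose difference of all 5 other extracts, 940 genes (5.69%) differed, 483 more positive (2.92%) and 457 more negative (2.77%) in Schisandrae. Polygalae entered this mean with slightly lower doses. ACSS2 departed furthest by p, at -0.81 ± 0.04 (adjusted p = 1.04e-19), with SLC2A1 at 0.75 ± 0.04, AKR1B10 at 0.80 ± 0.06 and LYZ at 0.68 ± 0.05. For AKR1B10 the dose difference in Aucklandiae, part of that mean, was larger than in Schisandrae. By list, 22 of 26 cholesterol genes and 5 of 7 metallothioneins were more negative than in the mean of the other extracts. More positive were 16 of 26 immediate early genes and 12 of 22 glycolysis genes. That mean itself was lower at the high dose for 11 cholesterol genes, 7 metallothioneins and 23 of 25 mitotic genes, with 0 higher in these lists. It was higher for 5 immediate early genes, 2 glycolysis genes and 22 of 29 NRF2 targets, with 0 lower.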

How the data were processed

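RNA of HepG2 cells was sequenced as 100 bp pairs with a directional library kit, per the labels' protocols. Per the submitters' processing notes, the tools were RSEM 1.3.3, STAR 2.7.3a, Trim Galore 0.6.5 and FastQC 0.11.9, with the build GRCh38. The deposited table holds the authors' expected counts per gene for 60 libraries, 10.3% of them not whole. Whether reads were counted by strand, and on which gene annotation, is not given in the sources used here. Counts were rounded, and 16517 of 60675 genes passed edgeR's filterByExpr by group, the others holding 0.0532% of all counts. A single quasi-likelihood model (edgeR 4.0.16, R 4.3.3) with 20 group terms and TMM scaling (factors 0.92 to 1.08) was fitted to all libraries, whose depth was 20.2 to 36.4 M, and its script was tested on simulated data. Tests were 2-sided with Benjamini-Hochberg adjustment over all tested genes. The biological coefficient of variation was 7.07%.

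Same-numbered high- and low-dose libraries deviated together over 9708 genes (r = 0.42, 0.16 and 0.36), as did medium- and low-dose libraries (0.38, 0.19 and 0.41), while high- and medium-dose libraries did not all do so (0.07, -0.13 and 0.54). High-dose replicate 2 deviated nearly as much with low-dose replicate 3 (0.13) as with its own number. High-dose replicate 1 deviated more with medium-dose replicate 2 (0.44) than with its own number. The pairing thus comes from the data and is weak for high-dose replicate 2, and the labels give the numbers only. Replicates were not duplicates, with a chi-square per degree of freedom of 3.01 to 11.5 between libraries of a group. Replicate 1 stood furthest from the other 2 in both groups. Alternatives were RLE scaling, other filters, DESeq2 1.42.0, the replicate block, a GC covariate, fewer libraries and leaving out each library. The members and lists were chosen with earlier results of these data known, and some genes stand in several lists. Genes named are the 12 largest rises and falls with non-overlapping groups and at least 5 CPM, up to 5 genes of smallest p per list, 5 per interaction and a set of fixed genes. MTF1, MT1A, SLC30A6, SLC39A3, SLC39A6, NPC1L1, PMVK, SREBF2 and GAPDH were named after their values were seen. Some genes that the rule names are not reported here.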

Additional observations from a re-analysis of the deposited data

Results flagged for a closer look

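The change between the high and the low dose differed from that of other extracts, by an interaction contrast in edgeR's model, for 821 genes against Liriopis, 852 against Aucklandiae and 940 against the mean of 5 other extracts. Each value below is the Schisandrae difference minus the other extract's on the log2 scale, for genes among the 5 of smallest p. Against Liriopis these were AKR1B10 at 1.351, ACSS2 at -0.917, SLC2A1 at 0.783 and FST at 1.028. Against Aucklandiae they were PTGR1 at -2.17, AKR1C2 at -1.492, AKR1C1 at -1.186, ACSS2 at -0.739 and LYZ at 0.873. Against the mean of 5 they were ACSS2 at -0.81, SLC2A1 at 0.747, AKR1B10 at 0.8 and LYZ at 0.679. AKR1B10 rose by more in Aucklandiae than in Schisandrae (-0.37 on the same scale). Aucklandiae and the extracts other than Liriopis belong to other code sets, so those contrasts compare differences taken within sets.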

How the results depend on the processing

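The 1650 genes called between high and low dose became 1411 with no filter on low counts and 2270 in the 6 libraries alone with the replicate block, and 1233 to 1348 on leaving out a library. With the replicate block in the full model 1806 were called. For medium against low dose, called for 42 genes, the counts were 263 with no filter, 75 with the replicate block, 69 with the GC covariate, 106 with both, 19 in these libraries alone, 679 in them with the replicate block and 66 in DESeq2, and 17 to 40 on leaving out a library. High against medium dose gave 1963 in these libraries alone with the replicate block and 690 to 819 on leaving out a library. The difference from Liriopis gave 478 in these libraries alone and 662 to 776 on leaving out a library, and that from Aucklandiae 1288 with the GC covariate and the replicate block and 688 to 806 on leaving out a library. The difference from the mean of 5 extracts gave 700 to 796 on leaving out a library. The cause was not tested in any of these cases.

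Of 198 named genes 146 were called, and 117 of these were called under every setting that tested them. Among their 2945 values under the alternatives none changed sign, 2756 kept their side of the threshold, 88 passed it newly and 101 no longer passed it. Under the replicate block no called gene lost its call, and ABCB1, BOP1, HNF4A, HSPA1A, POLA1, RRP12 and UTP15 gained one. Of 555 list counts 77 moved by over 1.5 times. At 21.9 to 27.02 M counts, MT1M, CYP7A1, INSIG1 and CYP3A4 lay under 1 CPM, where depth limits what can be detected.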
